A study of Homo sapiens with 8 samples.

Results

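The aryl hydrocarbon receptor (AHR) pathway and its CYP1 target genes were examined in HepG2 cells that carried a plasmid for the epithelial transcription factor GRHL2. The genes were taken by symbol from the single deposited expression table. Of 9 genes listed, CYP1A1, CYP1A2, CYP1B1, AHR, AHRR, ARNT, TIPARP and ALDH3A1 were among its 17561 genes, which gave 8 genes, and LRAT was not analysed here. CYP1A1 was chosen because its values in these same libraries placed it among the largest decreases called between the plasmids, and the other genes were listed around it. The comparison of the plasmids is therefore given for these genes as a description with no p-value. Where the calls of the fit across all genes are counted or drawn for them, the call of CYP1A1 follows from how it was chosen.

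HepG2 is a human cell line from a liver tumor, and the experiment used this 1 line. Cells grown on gelatin-coated dishes, in medium that held 50 nM dexamethasone per the labels (the study's methods give another unit), received either the GRHL2 expression plasmid (pGRHL2) or the control vector pcDNA3, and RNA was collected at 48 h. GRHL2 was fused to a flag tag, was driven by the EEF1A1 promoter and shared its construct with a green fluorescent protein, so the 2 plasmids differed in more than the GRHL2 insert. Dexamethasone and the culture medium were common to both groups. Each plasmid had 4 mRNA libraries numbered 1 to 4, described by the study as biological replicates, giving 8 libraries of paired-end RNA-seq.

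AHR is a ligand-activated transcription factor of the bHLH-PAS family that waits in the cytoplasm in a chaperone complex. Upon binding of dioxins, polycyclic aromatic hydrocarbons or tryptophan derivatives it enters the nucleus, pairs with ARNT and binds short DNA elements with the core GCGTG. CYP1A1, the classical target, encodes a monooxygenase of the endoplasmic reticulum that oxidizes polycyclic aromatic hydrocarbons, and it is strongly inducible in liver cells. AHRR and TIPARP are also targets of the receptor and act back on it as repressors.

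The sequences before the gene starts are shown first, since they hold the elements through which AHR is known to act. They were read from hg38 at the gene starts of RefSeq (GRCh38.p14), 5′ to 3′ on the strand of each gene, and capitals mark each GCGTG or its reverse complement CACGC. Positions count backwards from the start, the last base before it being -1. RefSeq promoters were matched for 6 of the 8 genes, namely CYP1A1, CYP1A2, AHR, AHRR, ARNT and TIPARP. The first sequence, chr15:74726500-74726799 (minus strand, -1271 to -972), is the 300-base stretch before CYP1A1 with the most matches, and no annotated gene lies over it. The others are the 250 bases before the starts of CYP1A1 (chr15:74725529-74725778, minus strand), its neighbor CYP1A2 (chr15:74748595-74748844, plus strand), AHRR (chr5:321464-321713, plus strand, inside the readthrough gene PDCD6-AHRR) and TIPARP (chr3:156674340-156674589, plus strand, overlapping an exon of the antisense gene TIPARP-AS1). Further starts are not printed. The 250 bases held 2 matches before the AHRR start at 322610 and 0 before the TIPARP starts at 156674926 and 156676664. They held 0 before AHR and ARNT, which are not printed either.
CYP1A1 stretch with 5 matches: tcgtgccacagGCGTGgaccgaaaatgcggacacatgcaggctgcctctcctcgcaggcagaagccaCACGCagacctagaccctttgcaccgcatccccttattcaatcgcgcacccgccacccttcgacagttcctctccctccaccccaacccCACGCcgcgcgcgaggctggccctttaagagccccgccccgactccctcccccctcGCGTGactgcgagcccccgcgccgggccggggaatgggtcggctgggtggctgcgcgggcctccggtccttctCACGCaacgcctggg
CYP1A1 before the start: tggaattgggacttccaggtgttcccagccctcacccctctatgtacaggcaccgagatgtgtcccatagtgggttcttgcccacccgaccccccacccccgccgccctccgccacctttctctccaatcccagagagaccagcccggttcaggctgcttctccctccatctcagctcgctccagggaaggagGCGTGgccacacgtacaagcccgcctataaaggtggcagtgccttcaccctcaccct
CYP1A2 before the start: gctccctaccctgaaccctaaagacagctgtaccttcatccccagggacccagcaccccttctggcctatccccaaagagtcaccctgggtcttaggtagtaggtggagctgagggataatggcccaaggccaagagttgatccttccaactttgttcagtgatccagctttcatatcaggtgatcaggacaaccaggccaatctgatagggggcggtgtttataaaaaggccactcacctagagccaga
AHRR before the start: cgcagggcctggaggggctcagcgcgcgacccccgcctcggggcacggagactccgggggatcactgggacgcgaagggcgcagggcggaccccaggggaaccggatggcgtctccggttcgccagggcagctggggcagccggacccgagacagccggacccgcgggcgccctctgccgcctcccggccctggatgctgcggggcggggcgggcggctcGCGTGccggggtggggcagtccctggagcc
TIPARP before the start: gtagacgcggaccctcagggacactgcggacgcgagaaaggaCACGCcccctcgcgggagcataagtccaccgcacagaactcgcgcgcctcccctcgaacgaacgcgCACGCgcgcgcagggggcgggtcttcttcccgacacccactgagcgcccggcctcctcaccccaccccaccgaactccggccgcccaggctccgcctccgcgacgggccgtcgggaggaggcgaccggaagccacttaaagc

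Over the 300 bases around each start (250 before and 50 after, either strand), GCGTG was found in 55.2% of 12829 deposited genes with a RefSeq promoter and in 4 of the 6 matched genes, AHR, AHRR, CYP1A1 and TIPARP. The longer form TNGCGTG, in which every match also holds the GCGTG core, was found in 8.86% of genes and in AHRR alone of the 6. In the 1500 bases before the start, a window chosen after the shorter ones had been seen, the median gene had 2 GCGTG matches while CYP1A1 had 10, a number reached by 105 genes (0.818%). CYP1A1 also had 5 matches to TNGCGTG, at -1385, -1061, -986, -898 and -503, and 6 genes (0.0468%) had at least 5. At the start with the most matches, AHRR had 8 GCGTG matches and TIPARP had 6, while ARNT had 5, all above the median gene. TNGCGTG was also found before ARNT (2 matches), AHRR and TIPARP. CYP1A2, which lies head to head with CYP1A1 on chromosome 15 with 23308 bases between the genes, had 1 GCGTG match in this window, and AHR had 0. A match is a description of the letters and not a measured binding site.

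**Figure D1:**
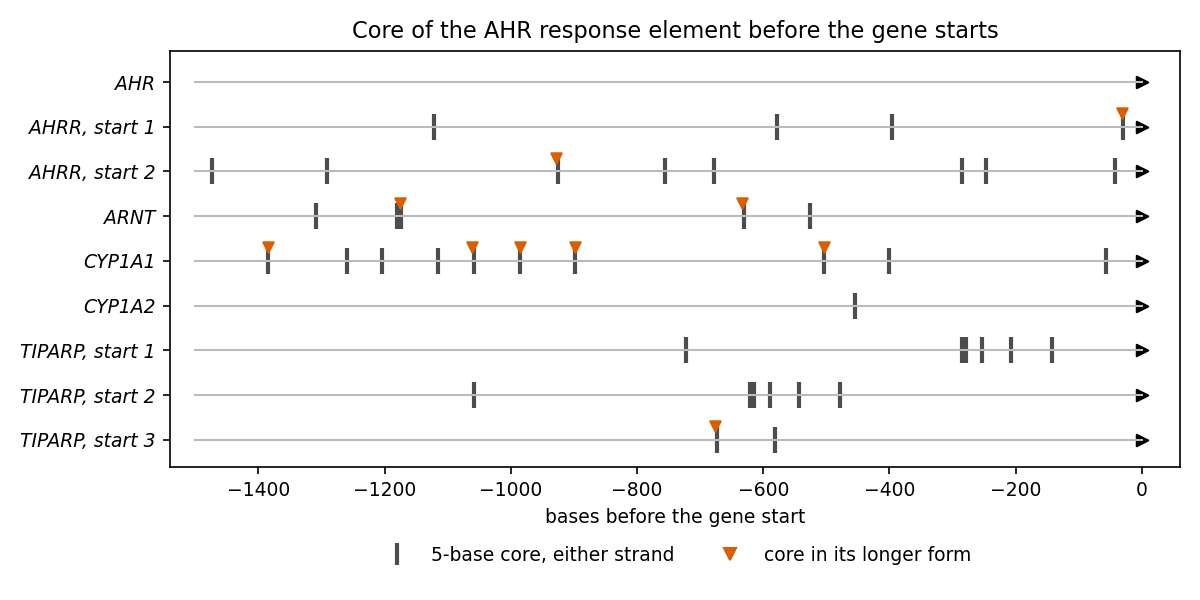
Position of each GCGTG core (grey bars) and of its longer form TNGCGTG (orange triangles) in the 1500 bases before each RefSeq start of the 6 matched genes, with arrowheads at the start and the x axis in bases. CYP1A1 holds 10 cores, 5 of them in the longer form. AHRR holds up to 8 and TIPARP up to 6 at a start, ARNT holds 5, CYP1A2 holds 1 and AHR holds 0.

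Letters bound by other factors were searched on both strands of the same 300-base windows. The Grainyhead motif AACNNGTT was found in 3.76% of genes and its palindromic form AACCGGTT, each match of which is also a match of AACNNGTT, in 0.234%. Neither was found in any of the 6 genes. ACGTG, part of the element bound by ARNT with other bHLH-PAS partners, was found in 30.7% of genes and in AHR and CYP1A1. TGACNNNGC, the antioxidant response element bound by NFE2L2, was found in 19.0% of genes and in ARNT. The AP-1 motif TGANTCA was found in 7.52% of genes and in 0 of the 6. The absence of a match covers only these letters in this window.

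The deposited values were on a log2 scale and given per mean transcript length, so that levels of different genes can be set beside each other only roughly. In every one of the 17561 genes, same-numbered pcDNA3 and pGRHL2 libraries averaged to one common value at all 4 numbers, and they were treated as 4 pairs. Within a pair the values of the 2 plasmids therefore mirror each other around a common mean. For any gene, groups without overlap are thus the same fact as 4 pairs of one direction, and no further evidence. The log2 FC of a gene (fold change of pGRHL2 over pcDNA3, in log2) is the mean of its 4 pair differences and stands beside their SD. Read counts were not analysed here and the depth behind each value was unknown. In these bulk libraries, less RNA per cell and fewer cells with the RNA cannot be told apart. As a check of the labels, GRHL2 differed by 8.97, 9.51, 10.26 and 9.18 (log2) in pairs 1 to 4, higher in pGRHL2 in every pair.

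CYP1A1 had the largest difference of the 8 genes and was the lower of its pair in every pGRHL2 library. CYP1A1 lies on chromosome 15 from 74719542 to 74725536 (hg38, minus strand). Its log2 values in pcDNA3 libraries 1 to 4 were 11.50, 11.47, 11.34 and 11.24, and those in pGRHL2 libraries 1 to 4 were 10.49, 10.52, 10.65 and 10.75. Every pGRHL2 library lay below every pcDNA3 library, which with identical pair means restates the common direction of the 4 pairs. The pair differences were -1.005, -0.95, -0.70 and -0.50, so that the log2 FC was -0.79 ± 0.24 (SD, n = 4 pairs), a linear ratio of 0.579. The difference was larger than its spread between pairs, but CYP1A1 was chosen from these same values.

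In the order of log2 FC over all genes, CYP1A1 ranked 4 from the lowest of 17561. The 3 genes below it were YWHAE (-1.0), DLX2 (-0.84) and DNAJC27 (-0.79), and the next above it was SBNO2 (-0.75). A log2 FC of -0.5 or less was reached by 12 genes. CYP1A1 was also well expressed, at a mean log2 value of 10.99 over the 8 libraries, above 94.7% of genes. Its largest difference was in pair 1, where GRHL2 differed least, and its smallest in pair 4, while GRHL2 differed most in pair 3. Whether these differences go together over pairs was not tested.

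**Figure D2:**
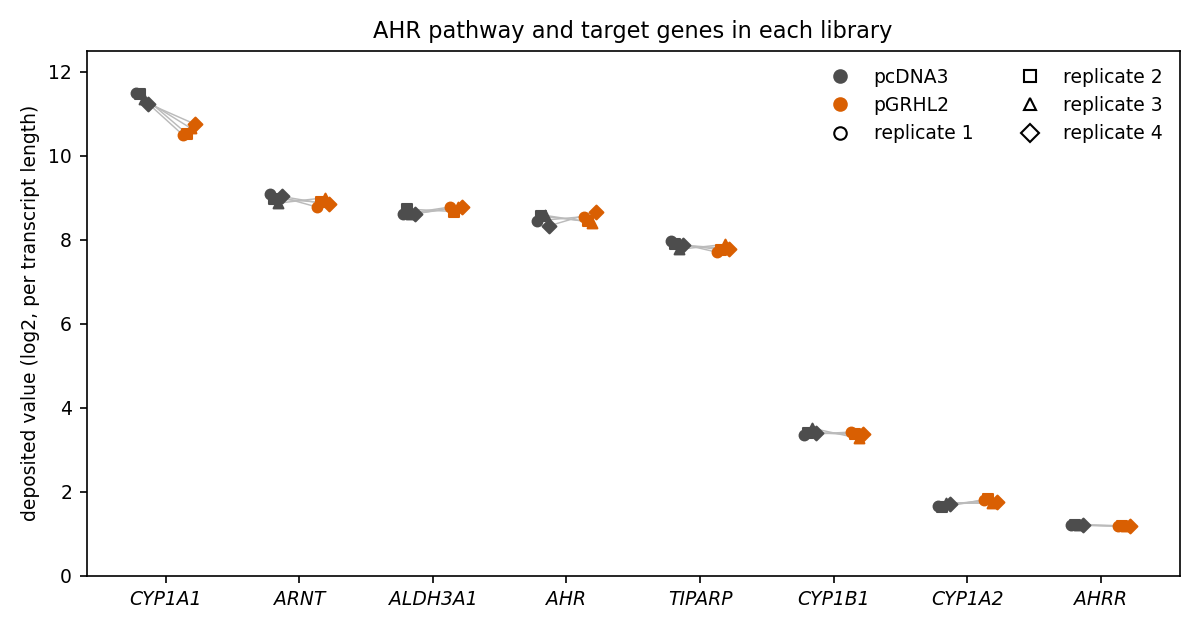
Deposited log2 value per transcript length (y axis) of the 8 genes in each library, pcDNA3 in grey and pGRHL2 in orange, with symbols for the replicate number and lines joining same-numbered libraries. CYP1A1 lies at 11.24 to 11.50 in pcDNA3 and 10.49 to 10.75 in pGRHL2, while the lines of the other genes are nearly level on this scale.

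The other CYP1 genes had low levels. CYP1A2, the caffeine-metabolizing enzyme of adult hepatocytes, lies on chromosome 15 from 74748845 to 74756607 (plus strand) and had a low level, above 15.3% of genes. Its log2 values were 1.67, 1.63, 1.74 and 1.71 in pcDNA3 libraries 1 to 4 and 1.79, 1.83, 1.72 and 1.75 in pGRHL2 libraries 1 to 4. The ranges overlapped, since pGRHL2 was higher in pairs 1, 2 and 4 and lower in pair 3, which gave 0.08 ± 0.09 as the log2 FC (SD, n = 4 pairs).

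CYP1B1, an enzyme that hydroxylates estrogens and is typical of tissues outside the liver, lies on chromosome 2 from 38066973 to 38109902 (minus strand). Its log2 values were 3.36, 3.40, 3.51 and 3.40 in pcDNA3 libraries 1 to 4 and 3.42, 3.37, 3.27 and 3.37 in pGRHL2 libraries 1 to 4. The plasmids overlapped and pair 1 went the other way, with a log2 FC of -0.06 ± 0.13 (SD, n = 4 pairs). Its annotated exons share 13% of their bases with other genes, CYP1B1-AS1 among them. The study's methods name union counting without regard to strand, so that reads from these shared bases cannot be assigned to 1 gene. CYP1B1-AS1 itself had a log2 FC of 0.01 ± 0.02.

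The values of the receptor AHR and of its partner ARNT overlapped between the plasmids. AHR (chromosome 7, 16916359 to 17346152, plus strand) had log2 values of 8.45, 8.56, 8.58 and 8.33 in pcDNA3 libraries 1 to 4 and of 8.55, 8.44, 8.41 and 8.66 in pGRHL2 libraries 1 to 4. Its pair differences had no common direction, 2 being higher and 2 lower in pGRHL2, for a mean log2 FC of 0.03 ± 0.23 (SD, n = 4 pairs). The AHR exons share 35.2% of their bases with 2 other annotated genes. ARNT (chromosome 1, 150809713 to 150876708, minus strand) had log2 values of 9.09, 8.98, 8.87 and 9.03 in pcDNA3 libraries 1 to 4 and of 8.78, 8.89, 9.0 and 8.84 in pGRHL2 libraries 1 to 4. It was lower in pGRHL2 in 3 of 4 pairs and higher in pair 3, with overlapping ranges and a log2 FC of -0.11 ± 0.19 (SD, n = 4 pairs).

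AHRR and TIPARP, the feedback repressors, are induced by the same receptor as CYP1A1. TIPARP (chromosome 3, 156673235 to 156706770, plus strand), which adds ADP-ribose to AHR, had log2 values of 7.96, 7.90, 7.77 and 7.87 in pcDNA3 libraries 1 to 4 and of 7.70, 7.76, 7.89 and 7.79 in pGRHL2 libraries 1 to 4. It was lower in pGRHL2 in pairs 1, 2 and 4 and higher in pair 3, for a mean log2 FC of -0.09 ± 0.15 (SD, n = 4 pairs). Its antisense gene TIPARP-AS1 had a log2 FC of 0.005 ± 0.032.

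AHRR (chromosome 5, 321714 to 438291, plus strand), which competes with AHR for ARNT, had the lowest level of the 8 genes. Its log2 values were 1.21, 1.21, 1.20 and 1.21 in pcDNA3 libraries 1 to 4 and 1.18, 1.18, 1.19 and 1.18 in pGRHL2 libraries 1 to 4. The pGRHL2 libraries were all below the pcDNA3 libraries, but by a log2 FC of only -0.02 ± 0.01 (SD, n = 4 pairs), a linear ratio of 0.983. AHRR shares 58.7% of its exon bases with PDCD6-AHRR, so that its value is uncertain.

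ALDH3A1 (chromosome 17, 19737984 to 19748943, minus strand), an aldehyde dehydrogenase induced through AHR in liver tumor cells, had log2 values of 8.61, 8.73, 8.61 and 8.62 in pcDNA3 libraries 1 to 4. Those in pGRHL2 libraries 1 to 4 were 8.78, 8.67, 8.78 and 8.78. It was higher in pGRHL2 in pairs 1, 3 and 4 and lower in pair 2, with a log2 FC of 0.11 ± 0.11 (SD, n = 4 pairs). Its mean difference was no larger than the SD of its pairs, so no direction is read from it.

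**Figure D3:**
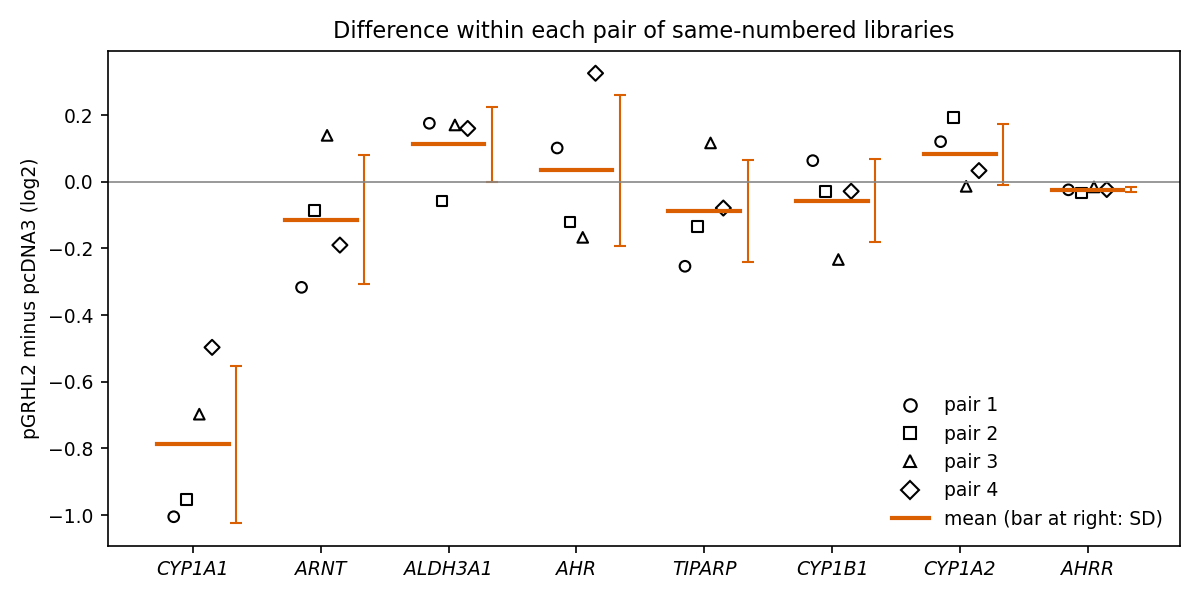
Difference of pGRHL2 minus pcDNA3 (log2, y axis) within each of the 4 same-numbered pairs for the 8 genes, with the mean as an orange line and the SD of the 4 pairs as a bar at its right. The 4 CYP1A1 pairs lie between -1.005 and -0.50, and the means of the other genes lie between -0.11 and 0.11.

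Counted over the 8 genes, limma called 0 higher in pGRHL2, beside 1.69% of all genes, and 1 lower, CYP1A1, beside 0.501% of all genes. The libraries of the 2 plasmids did not overlap for 2 of the 8 genes, CYP1A1 and AHRR, beside 24.0% of all genes. Since CYP1A1 was picked from this contrast, nothing is read from these counts. The median log2 FC of the 8 genes was -0.04, compared with 0.002 over all genes, and 3 genes were higher and 5 lower on average. The 7 genes besides CYP1A1 lay between -0.11 and 0.11, and apart from AHRR each had a mean difference no larger than the SD of its pairs.

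The rlog transformation used upstream shrinks differences of genes with few reads. A low value per transcript length is not a count of reads, and the part of this shrinkage in the values below was not tested. Among the 6703 genes with a mean value under 5, the median size of the log2 FC was 0.020 and the median SD of the pair differences was 0.037. Among the 10858 genes at 5 or more, the same medians were 0.060 and 0.117. CYP1A2, CYP1B1 and AHRR were 3 genes of the first class, and the other 5 were of the second.

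**Figure D4:**
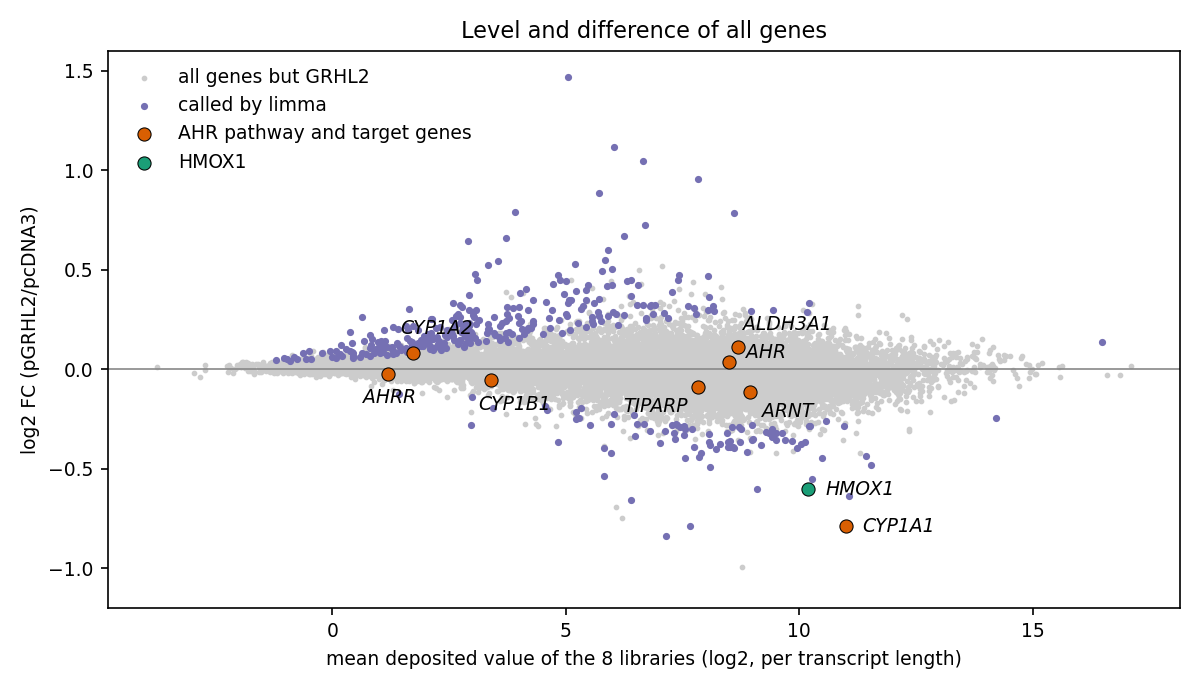
Mean deposited log2 value per transcript length (x axis) and log2 FC (y axis) of every gene except GRHL2, with genes called by limma in purple, the 8 AHR pathway and target genes in orange and HMOX1 in green. CYP1A1 lies at a level of 10.99 and a log2 FC of -0.79, the other AHR genes lie near 0, and genes at low levels spread less around 0.

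The order of levels was the same in both plasmids for 8 of 8 genes. In pcDNA3, CYP1A1 was highest at 11.39 ± 0.12 (mean log2 value, SD, n = 4), followed by ARNT (8.99 ± 0.10), ALDH3A1 (8.64 ± 0.06), AHR (8.48 ± 0.11), TIPARP (7.87 ± 0.08), CYP1B1 (3.42 ± 0.06), CYP1A2 (1.69 ± 0.05) and AHRR (1.21 ± 0.004). The SD of these levels holds no spread between pair means, since these were identical. The step from CYP1A1 to ARNT was 2.40 on the log2 scale, a 5.27-fold difference in level, and the widest step, from TIPARP to CYP1B1, was 4.46 or 21.9-fold. Neighbors in this order had pcDNA3 ranges that did not overlap, the closest being ALDH3A1 (lowest library 8.61) and AHR (highest library 8.58). Like the SD, these ranges hold no spread between pair means. Exon bases shared with other genes (35.2% for AHR, 58.7% for AHRR and 13% for CYP1B1) were not corrected for. Close steps and the last place of AHRR are therefore uncertain. In pGRHL2 the ranges of ARNT and ALDH3A1 overlapped, and these neighbors did not differ beyond their spread there. With the lower values in pGRHL2, CYP1A1 still had the highest level of the 8 genes.

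The genes whose pair differences were most like those of CYP1A1 were found by the root mean square distance over the 4 pairs. This distance takes in the size of the decrease, for which CYP1A1 was chosen, as well as its pattern over pairs. All 5 genes named were among the 12 with a log2 FC of -0.5 or less. Whether they share regulation with CYP1A1 was not tested. The nearest was DNAJC27, a small GTPase with a J domain, at a distance of 0.105, with pair differences of -1.07, -1.02, -0.52 and -0.55. KLF10, a zinc finger factor induced by TGF-β, followed at 0.157, and DLX2, a homeobox factor, at 0.191. BCL3, an atypical member of the IκB family, lay at 0.241 and TNFAIP3, the NF-κB inhibitor A20, at 0.317. The next gene, FOSB, was at 0.318, so that the end of this list at 5 genes is arbitrary. HMOX1, a gene of the wider AHR pathway lists, was just beyond these genes at 0.325. The distance to CYP1A1 was 0.710 for ARNT, the closest of the other 7 genes, and 0.719 for TIPARP.

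The wider pathway was described with 7 lists compiled from textbook knowledge, with 69 of 85 listed symbols in the table. Earlier results of these data were known when the lists were compiled, so their calls are a description. Over all of them limma called 0 genes higher and 1 lower, HMOX1, beside 1.69% higher and 0.501% lower over all genes. At such shares a short list can hold 0 calls, so the counts per list below are not read as a lack of change. An unadjusted limma p under 0.05 was found for 13 of the 69 (18.8%), 7 higher and 6 lower, and for 2802 of all genes (16.0%). The median log2 FC of the 69 genes was -0.002.

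HMOX1, heme oxygenase 1, degrades heme, the prosthetic group of P450 enzymes, and was listed with the electron donors and heme supply of P450s. It lies on chromosome 22 from 35380361 to 35394214 (plus strand). Its log2 values were 10.42, 10.58, 10.64 and 10.35 in pcDNA3 libraries 1 to 4 and 9.97, 9.82, 9.75 and 10.04 in pGRHL2 libraries 1 to 4. The groups did not overlap, and the difference was largest in pairs 2 and 3, unlike CYP1A1, whose largest differences were in pairs 1 and 2. Its mean log2 FC, -0.60 ± 0.27 (SD, n = 4 pairs), was called by limma (adjusted p = 0.0175) and held rank 9 from the lowest of all genes. Since its list was compiled with earlier results of these data known, this call is not independent of them. Leaving out replicate 1, 2 or 3 in turn ended this call, and the limma adjusted p ranged from 0.0288 to 0.0857 over the 4 fits that left out a replicate. The other 6 genes of its list were not called.

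Of the AHR chaperones and cofactors, 0 of 10 were called. The largest differences were those of the histone acetyltransferases and coactivators EP300 (-0.23 ± 0.25 in log2, limma adjusted p = 0.256) and CREBBP (-0.19 ± 0.22, limma adjusted p = 0.301). Of the other bHLH-PAS partners, 0 of 7 measured genes were called. SIM2, a developmental factor that dimerizes with ARNT, was higher in 4 of 4 pairs (0.22 ± 0.12, limma adjusted p of 0.083), and BMAL1, the circadian partner of CLOCK, differed by -0.10 ± 0.09 (limma adjusted p = 0.428).

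Of further AHR targets, 0 of 10 measured genes were called. NFE2L2, the regulator of the antioxidant response, differed by -0.19 ± 0.16 (limma adjusted p = 0.191), and CYP2S1, another dioxin-inducible P450, was higher in 4 of 4 pairs by 0.16 ± 0.12 (limma adjusted p of 0.267). NQO1, the quinone reductase induced by both AHR and NFE2L2, was named after its values were seen because it had the highest level of the list (13.47), and its log2 FC was -0.009. In tryptophan catabolism, a source of AHR ligands, 0 of 5 measured genes were called. KYNU and AFMID, enzymes of the kynurenine route, differed by -0.15 ± 0.32 and -0.07 ± 0.11 (limma adjusted p = 0.568 and 0.664).

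Retinoid handling was listed because CYP1A1 and LRAT act on retinoids, and 0 of 17 measured genes were called. RARA, a retinoic acid receptor, differed by -0.24 ± 0.17 (limma adjusted p = 0.141). Of P450 enzymes of families 2 and 3, the main drug-metabolizing enzymes of liver, 0 of 13 measured genes were called. CYP2W1 and CYP3A5 differed by 0.21 ± 0.24 and 0.13 ± 0.17 (limma adjusted p of 0.296 and 0.421).

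**Figure D5:**
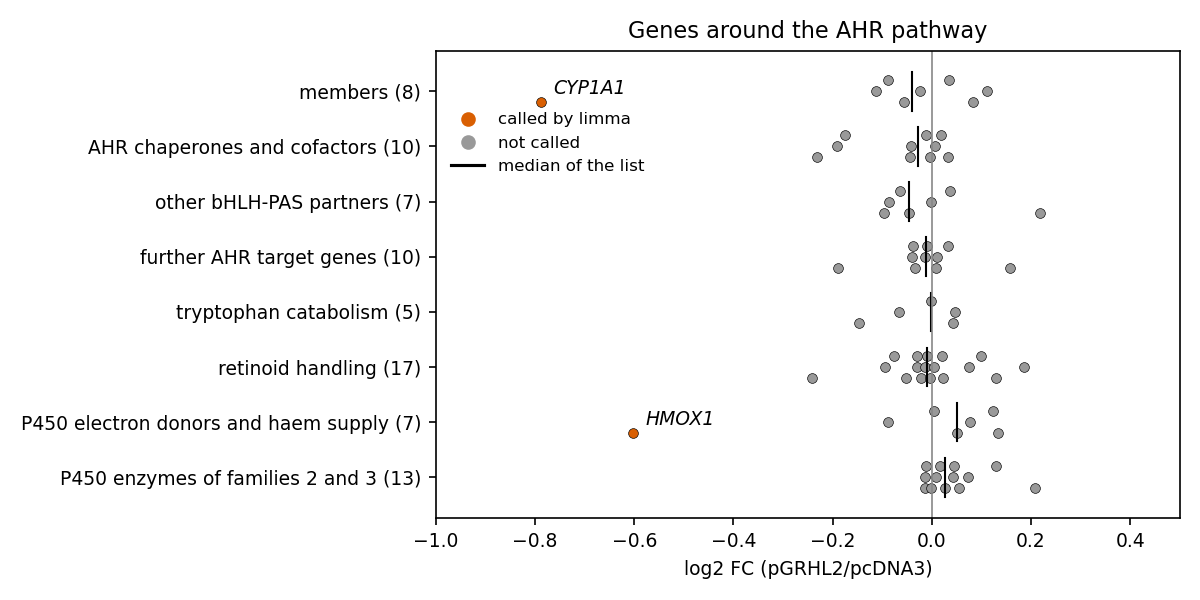
Log2 FC (x axis) of each measured gene of the 8 AHR genes and of the 7 wider lists, with the number measured in parentheses, the list median as a black line and genes called by limma in orange. HMOX1 at -0.60 is the called gene of the wider lists, CYP1A1 at -0.79 was chosen for its decrease in this contrast, and every other gene lies between -0.24 and 0.22.

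The cell type label was checked with 8 hepatocyte lineage genes, which had mean log2 values of 9.83 to 17.11, and 0 of them were called. Of 8 markers of blood, endothelial and stromal cells, 3 were in the table, PECAM1 (5.43), VWF (1.91) and COL1A1 (5.82), and 0 were called, while PTPRC, CD68, COL1A2, DCN and LUM were not analysed here. The log2 of their summed linear level was 6.60 to 6.68 in pcDNA3 and 6.71 to 6.79 in pGRHL2, higher in pGRHL2 through COL1A1 (higher by 0.20 ± 0.10 in log2, limma adjusted p = 0.084). The part of this difference in the CYP1A1 values was not tested.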

How the data were processed

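RNA-seq of HepG2 cells transfected with pcDNA3 or pGRHL2 was analysed, with groups and replicate numbers taken from the labels. According to the study's methods, the authors mapped reads to hg38, counted reads over exons without strand, left out genes of low count, transformed the counts by rlog and divided by mean transcript length. The submitters' processing notes name HISAT2 2.2.1, HTSeq 0.9.1 and DESeq2 1.40.2. The deposited values are named FPKM but were on a log2 scale, from -3.76 to 17.3, with 3.71% below 0 and library medians of 6.71 to 6.73. In 1 value a stray trailing character was removed.

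In 17561 of 17561 genes the 4 means of same-numbered libraries were identical (tolerance 1e-09), which the study's methods do not account for. The correlation check for pairing is void for this reason. The test was limma 3.58.1 in R 4.3.3 (lmFit, eBayes with trend) with the replicate number as a block, Benjamini-Hochberg adjustment over all genes and a threshold of 0.05. No filter was applied. P-values measure the spread between 4 pairs of one cell line.

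The members and lists were chosen with earlier results of these data known. Named genes were GRHL2, the listed AHR genes, in each wider list the genes called (at most 4) or otherwise the 2 of largest log2 FC in size, and the 5 genes nearest to CYP1A1 in their pair differences. Some of these results are not reported here. Positions and exon overlaps came from GENCODE release 44, promoter starts from RefSeq (GRCh38.p14) and bases from hg38, which were identical for all 18290 promoters used. For genes with several starts, the start with the most matches was counted. Tables were handled in Python 3.11.15 with numpy 2.4.6 and pandas 2.3.3. Alternatives were a fit without the block, a filter on level, 2 scalings, robust eBayes, arrayWeights, leaving out each replicate and a stricter threshold.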

Additional observations from a re-analysis of the deposited data

Results flagged for a closer look

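In each named gene the 4 pair differences were searched for 1 far from the others, because values within a pair mirror each other and a library far from its group shows as such a pair. Of 27 genes, 1 had a gap to the nearest pair past the 95% critical value of Dixon's test for 4 values, where about 1 gene in 20 is given by chance. In ALDH3A1, pair 2 differed by -0.0583 (log2, pGRHL2 minus pcDNA3), while the median of the other pairs was 0.17, and the gap was 0.933 of the range. The pGRHL2 library 2 value of 8.67 was the lowest of its group and the pcDNA3 library 2 value of 8.73 the highest of its group.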

How the results depend on the processing

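Without the replicate block, limma called 1821 genes higher and 1427 lower, among them all 297 higher and 88 lower genes of the blocked fit. Of the 69 measured genes of the wider lists it then called 7 higher and 5 lower, SIM2, CYP2S1, NFE2L2, RARA and HMOX1 among them. These stand beside 1821 higher and 1427 lower of all 17561 genes, and nothing is read from them. Of the 8 AHR genes it called CYP1A1, which was chosen for its decrease, and AHRR. This fit ignores the pairing of values that mirror each other. With arrayWeights 503 genes were called higher and 221 lower, and the stricter adjusted p under 0.01 left 77 higher and 10 lower. With a mean of at least 5, 63 genes were higher, and 495 were higher with libraries rescaled to the same total without GRHL2. The share of higher calls was 77.1%, and 43.8% with the level filter, 84.2% with the rescaling and 75.1% with libraries centred on their medians. The last 2 moved each log2 FC by a constant, 0.0135 and -0.0043. Genes of the wider lists called higher numbered 1 after rescaling and 2 with arrayWeights, and those called lower numbered 0 at an adjusted p under 0.01. Leaving out each replicate gave 79 to 156 higher and 8 to 68 lower genes, and 0 to 1 lower genes of the wider lists, which the smaller number of pairs bears on. HMOX1 was called in 1 of these 4 fits. Besides these, the cause was not tested. The rescaling brought the log2 FC of AHRR to -0.0108. Of the other named genes' values, 109 kept their call or lack of one and 5 gained a call, while with a replicate left out 66 kept theirs and 10 lost a call. Before the start alone, GCGTG was found in 50.1% of genes. The depth behind the values was unknown. The rlog transformation used upstream shrinks differences of genes with few reads, and its part in the values of CYP1A2 and AHRR was not tested.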

Other observations

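In pair 3 several regulators went against their other pairs. ARNT, TIPARP, EP300 and CREBBP were lower in pGRHL2 in pairs 1, 2 and 4 and higher in pair 3, by 0.14, 0.12, 0.11 and 0.08 (log2). These genes were set side by side after their values were seen. CYP1A1 was lower in pair 3 by -0.70, between its values in the other pairs.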
